A study of Mus musculus with 15 samples.

Results

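The response described here is that of control mouse embryonic stem (ES) cells to retinoic acid. It compares 4 arrays of ES cells transfected with the control hairpin shCTR and treated with 1 µM retinoic acid for 72 hours against 4 arrays of shCTR cells with no treatment, which are 8 of the 15 arrays of the series. The other 7 arrays hold ES cells transfected with the hairpin sh4, 4 untreated and 3 after the same treatment. They do not enter the change itself, but share in the estimate of spread, the probe filter and the choice of probe. Their own levels are used only where a difference between hairpins was tested. Total RNA, 500 ng per sample, was labelled with Cy3 and hybridised alone to a 1-colour Agilent array. The labels give the cells no line name, no sex and no clone, and all 8 samples carry a hairpin, so that an untransfected cell is not part of the comparison. They call the samples biological replicates without saying that the cultures were separate, so a p-value measures only the spread between these samples. They give no culture time for the untreated cells, and the effect of the agent cannot be told apart from that of the time in culture. A level below is the log2 of the processed signal minus the array's 75th percentile, so that 0 is that percentile, and a change is the treated mean minus the untreated mean on this log2 scale, with its standard error.

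Retinoic acid is made inside cells from retinol, by retinol dehydrogenases and then by aldehyde dehydrogenases of the Aldh1a family. It is carried by small binding proteins and destroyed by the Cyp26 hydroxylases. It binds nuclear receptors of the Rar family, which sit on DNA as pairs with Rxr receptors and hold corepressors until the ligand arrives. In ES cells the agent is a standard way to end self-renewal, and in the embryo it patterns the hindbrain and the trunk through the Hox genes.

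The classical binding element of the receptor pair is a direct repeat of a hexamer with 5 bases between the copies. Both promoters below belong to textbook targets of the receptor, the receptor gene Rarb and the hydroxylase gene Cyp26a1, and are shown because they hold that element and because both genes were among the strong rises. The sequences are the 250 bases before the annotated start, from RefSeq on GRCm38.p6, written 5′ to 3′ on the gene's strand, and capitals mark the repeat. The Rarb window lies at chr14:16575477-16575726 on the minus strand, with the repeat 53 to 37 bases before the start. The Cyp26a1 window lies at chr19:37697558-37697807 on the plus strand, with the repeat 32 to 16 bases before the start and read on the opposite strand.
Rarb: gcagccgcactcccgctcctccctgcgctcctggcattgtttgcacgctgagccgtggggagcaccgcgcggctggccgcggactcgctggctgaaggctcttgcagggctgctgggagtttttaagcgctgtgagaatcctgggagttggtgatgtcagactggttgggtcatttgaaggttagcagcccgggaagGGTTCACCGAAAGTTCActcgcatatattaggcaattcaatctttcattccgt
Cyp26a1: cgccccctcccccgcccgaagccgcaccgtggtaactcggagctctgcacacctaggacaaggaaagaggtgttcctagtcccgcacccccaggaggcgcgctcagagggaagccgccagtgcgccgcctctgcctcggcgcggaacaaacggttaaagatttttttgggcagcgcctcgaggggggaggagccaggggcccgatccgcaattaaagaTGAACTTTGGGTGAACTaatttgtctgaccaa
The search used the hexamer AGGTCA, its variant AGTTCA, the form GGGTCA and the form GGTTCA in any combination, on both strands and with 5 bases between. Repeats with 1 or 2 bases between were counted apart and stood in 54 (0.164%) and 57 (0.174%) of all windows. The repeat with 5 bases between occurred in 29 of 32851 promoter windows of this length (0.0883%), and in 12 of 14531 tested genes with a window (0.0826%). Among genes that rose at least 2-fold it occurred in 4 of 2524 (0.158%) and among those that fell at least 2-fold in 2 of 1878 (0.106%). Of 38 listed direct targets of retinoic acid, 22 matched a window and 2 of them, the genes printed above, held the repeat. A match describes these letters and is not a measured site.

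Most of the genes measured differed between treated and untreated cells. Of 25090 genes tested, 15649 changed (62.4%), 7243 up (28.9%) and 8406 down (33.5%), where a gene changed if its adjusted p in limma was under 0.05. By at least 2-fold, 4040 rose (16.1%) and 2932 fell (11.7%). The shares of all genes, 28.9% up and 33.5% down, are the background for every list count below. The median absolute change over all genes was 0.56. The median change over all genes was −0.12, and centring each array on its median instead shifted this value to −0.33. Under that centring 35.3% of the calls were rises, and with a normexp background correction 36.2%, against 46.3% here. Small changes can keep or lose a direction with the scaling, and medians of lists with many dim genes were lower with the normexp correction or in the deposited table, where those values are given. In 15011 genes (59.8%) the 4 arrays of one group lay wholly above the 4 of the other. In a principal component analysis of the 8 arrays the first axis held 84.5% of the variance and set the treated apart from the untreated arrays. The next axis held 7.74%, and on it slides 3 and 4 lay opposite slides 1 and 2. Each slide held 1 array of either group. The share of probes well above background was 73.8% to 79.4%, and none was saturated. The scanner software rated untreated replicate 2 as one to evaluate, and 15309 genes changed without it. Arrays give no read depth, and their number limits the precision.

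**Figure D1:**
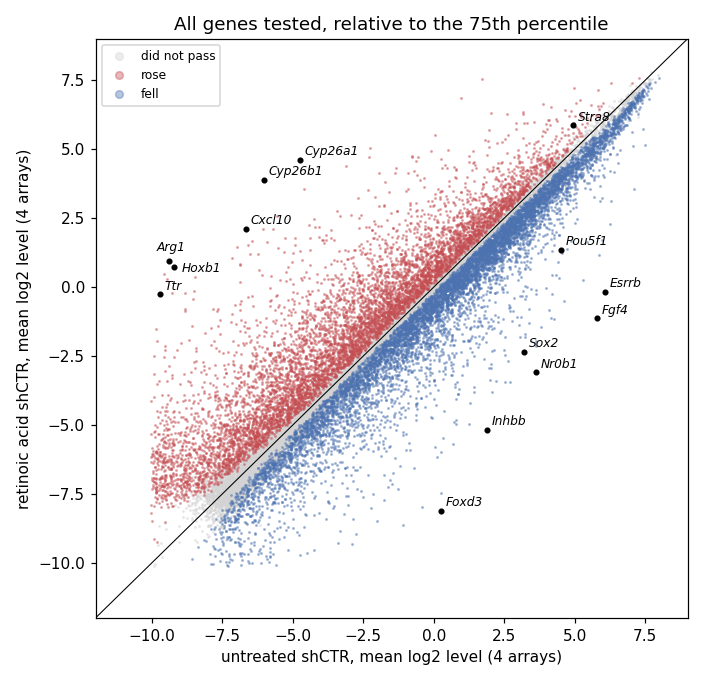
Mean log2 level of each of the 25090 genes on the 4 untreated (x axis) and the 4 treated (y axis) shCTR arrays, relative to the array's 75th percentile; red points rose, blue points fell, grey points did not pass, and the line marks equal levels. Cyp26a1, Cyp26b1 and Cxcl10 lie far above the line, and Foxd3, Fgf4, Esrrb and Inhbb far below it.

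The 15 largest rises joined retinoid enzymes and Hox genes to genes of several differentiated tissues. Arginase Arg1, which splits arginine to urea and ornithine, stood at −9.86, −9.23, −8.55 and −9.91 on the untreated arrays, at or below background on each, and at 0.90, 0.89, 1.07 and 0.84 after treatment. Its fold is therefore given as at least 424-fold, where "at least" sets the untreated group to the lowest signal well above background on each array, or to its own where that was higher. The adjusted p beside such a fold belongs to the fitted change (here 10.32 ± 0.27, adjusted p = 9.7e-13) and does not test the fold. In the same way the cardiac actin Actc1 was at least 313-fold higher (adjusted p = 1.4e-14), the matrix proteoglycan Dcn at least 273-fold (1.6e-13), the retinol and thyroid hormone carrier Ttr at least 186-fold (6.2e-15) and the tissue plasminogen activator Plat at least 178-fold (5.0e-10). Cxcl10, a chemokine of the interferon response, was measured in both groups, between −6.83 and −6.36 before and between 1.92 and 2.33 after treatment (8.79 ± 0.12). Glipr1 rose by 8.42 ± 0.08 and the glucuronosyltransferase Ugt2b34 at least 78.2-fold. Of these 15 genes, 10 were well above background on no untreated array. The genes were chosen for their size, so that their not overlapping is no finding. Over all genes, 532 were well above background on no untreated and on all 4 treated arrays, and 124 the reverse.

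The 15 largest falls, not given here in order of size, included genes of the pluripotent state. Foxd3, a forkhead factor needed to keep ES cells, stood at 0.01, 0.36, 0.39 and 0.27 before treatment and at background, −7.76, −7.89, −7.65 and −9.13, after it, at least 249-fold lower (adjusted p = 9.6e-09). The growth factor Fgf4 fell by 6.91 on the log2 scale, the orphan nuclear receptor Nr0b1 (Dax1) by 6.72 and its relative Esrrb by 6.24. Spry4, an inhibitor of receptor tyrosine kinase signalling, fell by 7.53 on the log2 scale, with 2 of 4 treated arrays well above background. The activin subunit Inhbb fell by 7.08. The homeobox gene Nkx6-3 changed by −7.57 on the probe used and by −4.30 on its other probe. The Fc receptor Fcgr2b was at least 57.0-fold lower, the phospholipase Pla2g4e at least 33.5-fold and the adhesion protein Kirrel2 at least 30.6-fold. The rest were the olfactory receptor Olfr985 (−7.70), the pyrimidine-degrading enzyme Dpys (−6.40), Glod5 (−6.23), the noncoding Platr10 (−6.22) and the myosin Myo1f (−6.16).

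The 3 retinoic acid receptors went different ways. Rarb, the receptor whose own gene is a classical target, stood at −3.93, −4.36, −3.98 and −4.04 untreated and at 2.20, 2.16, 2.10 and 2.18 treated. All 4 treated arrays lay far above all 4 untreated ones, a rise of 6.24 ± 0.09 (75.4-fold, adjusted p = 5.7e-15), and the second Rarb probe gave 6.25. Rarg, the receptor most tied to the early embryo, moved from 3.67, 3.61, 3.46 and 3.82 to −0.13, −0.14, −0.16 and 0.07. The groups lay well apart, a fall of 3.73 on the log2 scale (SE 0.09, adjusted p = 3.9e-13), which left 7.54% of the untreated level. Rara, the receptor present in most cells, fell by 0.60 (SE 0.08). Among the partners, Rxra measured 0.37 ± 0.12 (adjusted p = 0.014), a call lost with array medians, with quantile normalisation and in the authors' deposited log2 table (adjusted p = 0.45, 0.092 and 0.069). Rxrb fell by 0.30, and Rxrg measured −0.26 and did not pass. The corepressor Ncor1 fell by 0.82. Nrip1, a corepressor that binds receptors in the presence of ligand, rose by 3.65 ± 0.07. In all 3 of 9 genes of this group rose (33.3%) and 5 fell (55.6%), against 28.9% and 33.5% of all genes. The median was −0.30, or −0.11 with quantile normalisation and in the deposited table and −0.50 with array medians.

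Genes that bring retinol in and handle it rose in number: 11 of 16 tested rose and 1 fell, with a median of 1.43, or 0.94 with 3 members at their bound. It was 0.58 with the normexp correction and 0.61 in the deposited table, and 0.63 over probes well above background on all 15 arrays. Stra6, the membrane receptor that takes up retinol, stood at −4.74, −4.50, −4.86 and −4.87 untreated and at 1.14, 1.33, 1.30 and 1.41 treated (6.04 ± 0.13, adjusted p = 1.4e-13). Dhrs3, which turns retinal back into retinol, stood at −0.71, −0.65, −0.51 and −0.66 and then at 4.44, 4.49, 4.68 and 4.68 (5.21 ± 0.08). Neither gene's groups overlapped. Rdh10, which oxidises retinol to retinal, rose by 2.69 ± 0.10. Of the aldehyde dehydrogenases, Aldh1a1 rose by 3.35, Aldh1a7 was at least 50.2-fold higher, and Aldh1a3 rose by 0.53. Aldh1a2, the main enzyme of the embryo's trunk, measured 0.27 ± 0.16 with overlapping arrays (adjusted p = 0.18). With the replicate number as a block it passed, at an adjusted p of 0.024. Rbp7, a retinol-binding protein, fell by 1.45, and Lrat, Rdh13 and Rdh14 did not pass.

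Both main hydroxylases that remove retinoic acid were among the 15 largest rises. Cyp26a1 stood at −5.05, −4.70, −4.51 and −4.71 untreated and at 4.65, 4.48, 4.60 and 4.72 treated. The change was 9.35 ± 0.12, or 654-fold (adjusted p = 2.6e-15), and lay between 9.11 and 9.70 within the 4 slides. Cyp26b1 moved from −5.77, −6.04, −6.48 and −5.85 to 3.76, 3.88, 3.88 and 3.99 (9.91 ± 0.14). The third member, Cyp26c1, was well above background on 1 untreated array and measured 2.27 ± 0.39, but −0.02 with the normexp correction. The carriers split: Crabp2, which hands the ligand to the receptor, rose by 4.45 ± 0.08, while Crabp1 fell by 2.00 (SE 0.10). Crabp2 stood between 0.37 and 0.56 untreated and between 4.87 and 5.06 treated, and Crabp1 between −0.74 and −0.42 and then between −2.74 and −2.48. Fabp5, another carrier of the ligand, rose by 0.72.

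**Figure D2:**
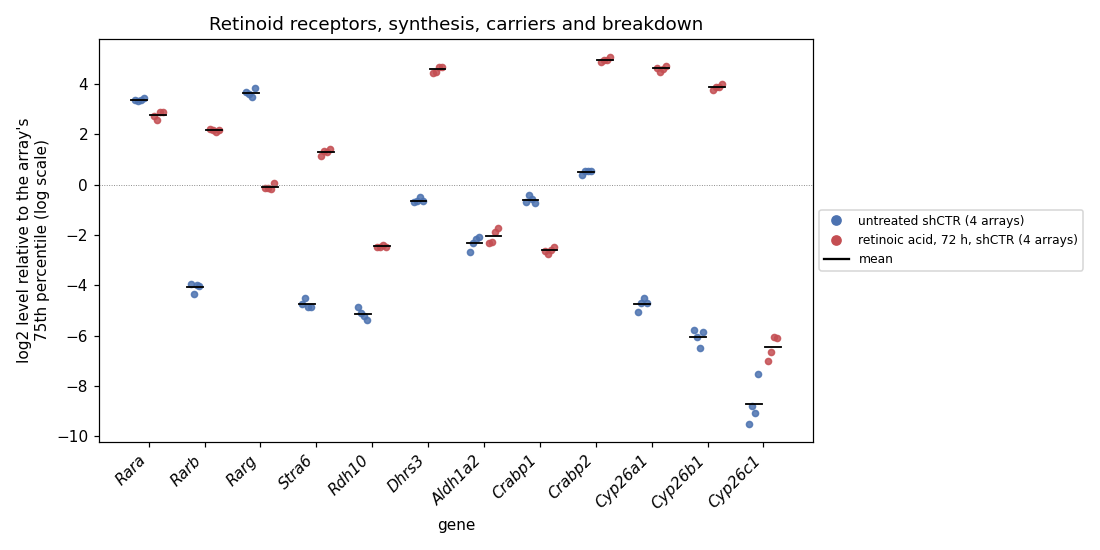
Log2 level relative to the array's 75th percentile of retinoid receptor, uptake, carrier and breakdown genes on each of the 4 untreated (blue) and 4 treated (red) shCTR arrays, with bars at the group means. Rarb, Stra6, Dhrs3, Cyp26a1 and Cyp26b1 lie higher on every treated array, Rarg and Crabp1 lower, and the groups of Aldh1a2 overlap.

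Of 38 genes listed as direct targets, 34 rose, 1 fell and 3 did not pass, with a median of 4.20, against 28.9% of all genes that rose. All lists were written with earlier results of these data known, so a list's count set against all genes is no test. The list of direct targets overlaps the groups above and the Hox genes below. Outside them, the zinc finger genes Tshz1 and Zfp703 rose by 7.07 and 7.02, the orphan receptors Nr2f2 and Nr2f1 by 4.96 and 4.66, and the factor Ets1 by 4.21 ± 0.08. The transglutaminase Tgm2 rose by 2.15 and the endoderm factor Foxa1 by 2.31. Stra8, the gatekeeper of meiosis, stood at 4.76, 4.97, 4.86 and 5.16 untreated and at 4.92, 6.11, 6.31 and 6.09 treated. Treated replicate 1 lay among the untreated arrays and the other 3 above them. The change of 0.92 ± 0.31 passed (adjusted p = 0.018) but was lost with array medians (adjusted p = 0.056) and without treated replicate 2 or 3 (0.050 and 0.060). The single fall was Lefty1, a Nodal inhibitor, by 1.86. Egr1, an early response factor, and Gbx2 were among those that did not pass.

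The Hox genes, homeobox factors that set position along the body axis, rose across all 4 clusters. Of 37 tested, 31 rose, 1 fell and 5 did not pass, with a median of 4.04, or 3.44 with 7 members at their bound. It was 2.09 with the normexp correction and 2.11 in the deposited table. By position in the cluster, all 12 genes of groups 1 to 4 rose, with a median of 5.49, as did 10 of 11 of groups 5 to 8 (5.29), while in groups 9 to 13 it was 9 of 14 (0.78). Hoxb1, the hindbrain gene with the largest change, stood at −9.32, −8.96, −9.22 and −9.40 untreated, at background, and at 0.64, 0.68, 0.77 and 0.79 treated, at least 368-fold higher (adjusted p = 1.8e-15). Its probe lies on mm9 at chr11:96228450-96228510. Hoxb5 was at least 285-fold higher, Hoxb8 at least 202-fold, Hoxa5 at least 195-fold and Hoxa2 at least 58.2-fold. The antisense transcript Hoxb5os rose by 8.20 ± 0.47.

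Cluster B moved as a whole: all 10 genes rose, with a median of 7.18, and even the isolated Hoxb13 went from −2.31, −2.11, −2.02 and −2.07 to 2.47, 2.28, 2.55 and 2.33 (4.53 ± 0.08). Hoxb9 rose by 4.04 ± 0.11. In cluster C, 6 of 8 rose, with Hoxc9 at 6.95 ± 0.08, Hoxc5 at 6.18 and Hoxc6 at 5.29, while Hoxc13 fell by 0.82 (SE 0.13). In cluster A, 7 of 11 rose, and Hoxa6, Hoxa9, Hoxa11 and Hoxa13 did not pass. Hoxa9 measured −5.13, −4.84, −5.87 and −5.70 untreated and −5.21, −4.74, −5.38 and −5.56 treated, groups that overlap, beside Hoxa5 and Hoxa7 (2.00 ± 0.08), which rose. Hoxa13 measured 0.62 ± 0.39 and passed without untreated replicate 1 (0.96, adjusted p = 0.035) and with the mean of its probes (0.71, 0.047), and Hoxa6 measured 0.46 ± 0.30 and passed without treated replicate 4 (0.70, adjusted p = 0.047). In cluster D all 8 rose, with a median of 1.92, from Hoxd3 at least 7.47-fold to Hoxd13 at 0.40. The posterior members are the least firm. With the normexp correction Hoxd10 and Hoxd11 turned to −0.12 and −0.11, and Hoxa10 and Hoxc10 kept 0.15 and 0.01 of their 2.50 and 1.88. Hoxd13 lost its call under 7 alternatives, among them leaving out untreated replicate 4 or treated replicate 1 or 2 (adjusted p = 0.054, 0.053 and 0.051). Hoxc12 measured −0.74 ± 0.61 (adjusted p = 0.32) and passed with the normexp correction (0.031), in the deposited table (0.0063) and in the 8 arrays alone with the replicate block (0.0056). Hoxb3 gave 5.44 and 7.93 on its 2 probes.

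Factors that bind DNA with Hox proteins rose for 8 of 13 and fell for 3, with a median of 1.02. Meis1 stood at −2.56, −2.17, −2.32 and −2.23 untreated and at 3.57, 3.35, 3.52 and 3.63 treated (5.84 ± 0.09, adjusted p = 1.4e-14). Meis2 stood between −3.71 and −3.61 and then between 1.69 and 1.86 (5.44 ± 0.06), and Meis3 rose by 2.25. Neither group of arrays overlapped for Meis1 or Meis2. The caudal factors Cdx2 and Cdx1, which act upstream of posterior Hox genes, rose by 2.64 ± 0.14 and 0.81 ± 0.14. The repressor Tgif1 fell by 1.76, Pbx4 by 0.58 and Pknox1 by 0.24. The Pknox1 call was lost with the normexp correction and without untreated replicate 1 or 2 or treated replicate 3 or 4 (adjusted p = 0.053 to 0.057).

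The pluripotency network fell nearly whole. Of 18 core factors 16 fell and 2 rose, with a median of −1.93, and of 25 naive factors 21 fell, 1 rose and 3 did not pass, with a median of −2.24, against 33.5% of all genes that fell. In bulk RNA a lower level from fewer cells of a kind and a lower level per cell cannot be told apart. Pou5f1, the gene of Oct4, stood at 3.94, 4.78, 4.72 and 4.53 untreated and at 1.49, 1.27, 1.45 and 1.23 treated. Every treated array lay below every untreated one, and 11.4% of the level was left (−3.14 ± 0.20, adjusted p = 1.0e-08). Sox2, its partner, went from 3.26, 3.28, 3.21 and 3.10 to −2.20, −2.30, −2.52 and −2.35 (−5.55 ± 0.11). Nanog went from between 5.22 and 5.39 to between 0.10 and 0.50 (−5.07 ± 0.24). Its other probe measured −0.43 and did not pass. Zfp42 (Rex1) fell by 3.97, the Ras-like Eras by 4.38 and Utf1 by 3.35.

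Among naive factors Esrrb stood at 6.06, 5.94, 6.05 and 6.21 untreated and at −0.34, −0.46, −0.09 and 0.17 treated (−6.24 ± 0.42). Prdm14, a repressor that guards the naive state, fell by 5.86, Klf2 by 3.83, Tfcp2l1 by 3.24 and Klf4 by 2.74. The falls were not equal. Tbx3 stood between 4.47 and 4.79 untreated and between 3.95 and 4.04 treated, a fall of 0.60 (SE 0.07), and Dppa3, which protects maternal methylation, fell by 0.63. Dppa5a, a marker of ES cells, measured −0.40 and did not pass (adjusted p = 0.061). The receptor of leukaemia inhibitory factor, Lifr, rose by 0.95 on the probe used and by 2.29 and 3.45 on the others. Lin28a and Lin28b, which bind let-7 precursors, measured 0.36 and 0.32. Both calls were lost with array medians, and that of Lin28a also in the 8 arrays alone and without treated replicate 3 or 4 (adjusted p = 0.062 for each).

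Genes of the primed epiblast, the state after implantation, did not move as 1 group: 8 of 20 rose and 12 fell, with a median of −0.64. Otx2, which drives the exit from the naive state, fell from between 0.74 and 0.99 to between −4.03 and −3.82 (−4.74 ± 0.09) and Nodal by 2.54. The growth factor Fgf5 rose by 2.43 ± 0.08, the tight junction protein Cldn6 by 4.04 ± 0.08, Sall2 by 2.73 and the Nodal inhibitor Lefty2 by 1.17.

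Genes of the extraembryonic endoderm rose from low levels. Of 33 genes of the primitive and visceral endoderm 26 rose, 5 fell and 2 did not pass, with a median of 2.96 (2.57 to 3.34 within slides). It was 1.73 with the normexp correction and 1.80 in the deposited table. Gata6, which starts this lineage, stood at −1.85, −1.74, −1.84 and −1.70 untreated and at 2.93, 2.75, 3.10 and 3.08 treated (4.75 ± 0.08, adjusted p = 1.9e-14). Gata4 stood at −4.39, −4.14, −4.28 and −4.44 and then at −0.13, −0.19, −0.20 and −0.10 (4.16 ± 0.08). All treated arrays of both genes lay above all untreated ones. The factors Foxa2, Sox7 and Sox17 rose by 5.88, 4.24 and 3.98. Genes of the endocytic machinery of the visceral endoderm also rose: Dab2 by 6.18 ± 0.10, the receptor Cubn by 7.32 ± 0.12 and its partner Lrp2 by 2.73. Secreted proteins rose too, among them Ttr (above), alpha-fetoprotein Afp (6.41 ± 0.16, with 1 untreated array well above background), Habp2 (7.56) and the signal Ihh (5.48). Hnf4a, a regulator of hepatic and visceral endoderm genes, rose by 0.83 ± 0.10. The falls included the lipid carriers Apoc2 (−2.86) and Apoe (−2.78), Spink1 (−2.31) and Fgg (−0.19).

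Of 18 genes of the parietal endoderm and its basement membrane 17 rose and 1, the nidogen Nid1, fell by 0.60, with a median of 2.33. The type IV collagens Col4a1 and Col4a2, which form the membrane's mesh, rose by 4.65 ± 0.09 and 4.91 ± 0.13. Col4a1 stood between −0.68 and −0.49 untreated and between 3.87 and 4.25 treated. The laminins Lamb1, Lama1 and Lamc1 rose by 3.20, 2.39 and 1.79. Thbd and Pth1r, markers of parietal endoderm, rose by 4.42 and 5.93, and the collagen chaperone Serpinh1 by 4.29.

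Keratins of simple epithelia, found in the trophectoderm and in endoderm alike, rose strongly. Krt8 stood at 0.95, 0.99, 1.00 and 0.92 untreated and at 6.98, 6.90, 6.78 and 6.82 treated, 60.1-fold (5.91 ± 0.10, adjusted p = 3.1e-14), and Krt18, its partner, rose by 5.86 ± 0.13. Krt19 and Krt7 rose by 5.55 and 5.49. In the list of trophectoderm and simple epithelium 17 of 21 rose and 2 fell, with a median of 2.64. That median lay between 1.81 and 2.71 over the alternatives. The placental gene Plac1 rose by 8.11 ± 0.08, Hand1 by 4.79 and Gata3 by 4.03, while Ascl2 fell by 1.25 and Tfap2c by 1.45. The trophoblast hormone Prl3d1 measured 0.46 and did not pass, and Tpbpa was not tested. Summed over the 4 tested trophectoderm markers, the linear level relative to the 75th percentile was 0.0953 to 0.116 untreated and 1.39 to 1.65 treated. Without Krt7 it was 0.0724 to 0.0901 and 0.305 to 0.356.

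Muscle and fibroblast genes rose as well. Of 21 genes of cardiac and smooth muscle 16 rose and 1, Myl4, measured −0.17, a call lost under 11 alternatives. The median was 1.99, and lay between 1.56 and 2.1 over the alternatives. The smooth muscle actin Acta2 stood at −4.39, −4.46, −4.74 and −4.84 untreated and at 3.37, 3.39, 3.90 and 3.58 treated (8.17 ± 0.15), groups far apart. Acta1, Myl9 and Tagln rose by 8.10, 6.10 and 5.49, the cardiac factor Nkx2-5 by 2.76, and the troponin Tnnt2 by 1.28. Of 20 fibroblast genes 18 rose, with a median of 2.69, or 2.48 with 5 at their bound. It was 1.45 with the normexp correction and 1.5 in the deposited table. Col3a1 was at least 39.5-fold higher (adjusted p = 5.8e-14), Col6a1 rose by 4.80, Col1a1 by 3.74 ± 0.17 and Pdgfrb by 1.99, while Thy1 fell by 1.95.

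Fibroblasts can be present in ES cultures as feeder cells, and the labels do not say whether feeders were used. The 8 fibroblast markers summed to a linear level of 2.47 to 2.82 untreated and 6.87 to 8.52 treated, with Col3a1, Dcn, Postn and Lum well above background on no untreated array and all 8 well above it on every treated array. Thy1, the marker that fell, made up most of the untreated sum, and without it the other 7 summed to 0.502 to 0.685 and 6.35 to 7.95. The 8 extraembryonic endoderm markers summed to 0.710 to 0.797 and 24.4 to 27.5, the 4 muscle markers to 0.574 to 0.760 and 2.85 to 3.52, and the 7 ES cell markers to 310 to 390 and 94.6 to 103. Dppa5a, which did not pass, made up most of the treated ES cell sum, and the other 6 markers summed to 232 to 256 and 11.3 to 13.5. Without Des the muscle sum was 0.264 to 0.379 and 2.47 to 3.07, and without Actc1 0.573 to 0.759 and 1.51 to 2.00. The 5 markers of endothelium and blood summed to 0.499 to 0.598 and 1.19 to 1.22, but without Runx1 to 0.370 to 0.477 and 0.195 to 0.202, and without Gata1 to 0.240 to 0.275 and 1.12 to 1.14. These sums without a marker were chosen after seeing the data. The part of each cell type in the changes of single genes was not tested.

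**Figure D3:**
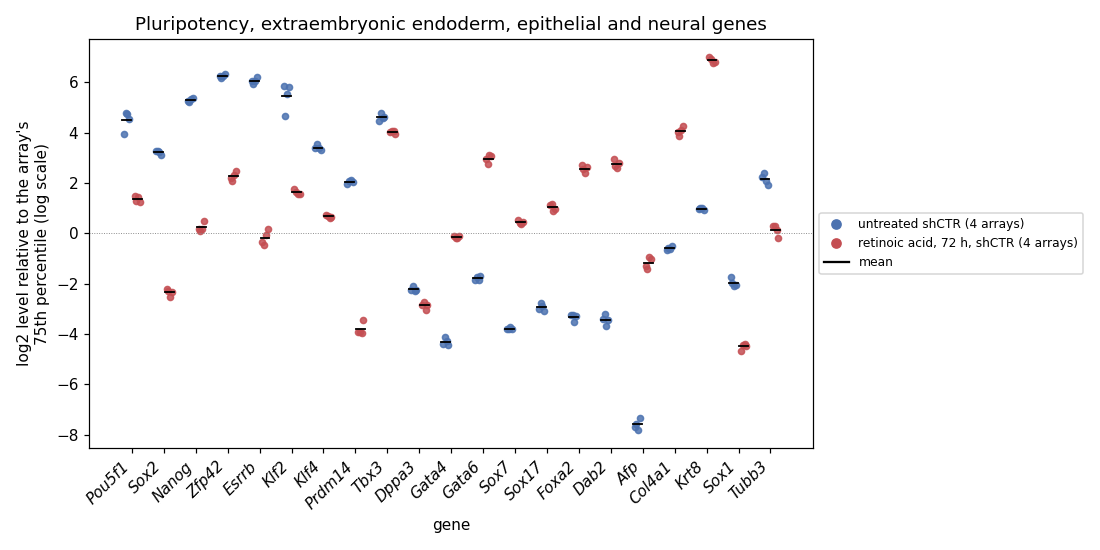
Log2 level relative to the array's 75th percentile of pluripotency, endoderm, epithelial and neural genes on each of the 4 untreated (blue) and 4 treated (red) shCTR arrays, with bars at the group means. Pou5f1, Sox2, Nanog and Esrrb lie lower on every treated array, Gata4, Gata6, Foxa2, Col4a1 and Krt8 higher, and Tbx3 and Dppa3 shift little.

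Of 23 genes of the primitive streak and mesoderm 13 rose and 8 fell, with a median of 1.49. It was 0.59 with the normexp correction and 0.78 in the deposited table. T (brachyury), the marker of the streak, measured −0.32 ± 0.27 with overlapping arrays, and Mesp1, Evx1 and Gsc fell by 2.51, 2.57 and 1.25. Tcf15, a mesoderm factor also found in ES cells, fell by 3.94. Rises included Osr1 at least 24.6-fold, Foxc2 by 4.83, Hand1 by 4.79, Pdgfra by 4.18 ± 0.05 and Foxf1 by 3.78. Eomes, shared by streak and trophectoderm, rose by 1.14 ± 0.09.

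Neural genes split. Of 38, 17 rose (44.7%), 11 fell (28.9%) and 10 did not pass, against 28.9% and 33.5% of all genes that rose and fell. The median of 0.12 has no firm sign, being 0.00 or below in 5 alternatives. Sox1, the first marker of the neural plate, stood at −1.73, −1.99, −2.11 and −2.05 untreated and at −4.66, −4.42, −4.40 and −4.46 treated (−2.52 ± 0.15), all treated arrays lower. The neuronal genes Stmn2, Mapt, Elavl3 and Tubb3, which build or regulate the neuronal cytoskeleton and RNA, fell by 5.06, 3.61, 3.39 and 2.03. Irx3 and the intermediate filament Nes rose by 5.67 ± 0.10 and 2.67 ± 0.11, Dcx, of migrating neurons, at least 7.50-fold, and Pax6 by 0.78 ± 0.13, which the normexp correction lost (adjusted p = 0.055). The 5 neuron markers summed to 14.6 to 16.6 untreated and 1.38 to 1.74 treated. Without Stmn2 the sums were 5.14 to 6.43 and 1.11 to 1.44, and without Tubb3 9.98 to 11.2 and 0.489 to 0.522. In the neural crest list 8 of 12 rose and 3 fell: Sox9 was at least 47.9-fold higher, and Foxd3, the neurotrophin receptor gene Ngfr and Tfap2c fell.

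Of 22 genes of endothelium and blood 6 rose and 13 fell, with a median of −0.83, which was −0.54 in the deposited table. The receptor Kit fell by 2.46, and Tal1, Pecam1 and Gata1 by 2.10, 2.02 and 1.95. The endothelial cadherin Cdh5 rose by 4.46 ± 0.18, Runx1 by 2.96 ± 0.06 and Gata2 by 2.77.

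The 2-cell-like genes, which mark a rare state of ES cells and the first cleavage, mostly rose: 19 of 23, with 2 falls and a median of 2.66. The Tdpoz, Usp17l, Tcstv and Zscan4 genes are families of near-identical copies, so their probes may read several members and are not independent. Tdpoz4 stood at −4.99, −4.86, −5.08 and −5.29 untreated and at −1.40, −1.29, −1.56 and −1.70 treated, with no overlap (3.57 ± 0.12, adjusted p = 1.0e-11). Usp17le rose by 3.17 and Zscan4c by 1.97. The falls were Pramel6 (−1.10) and Zfp352 (−1.06), and Dux measured −0.23 and did not pass.

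Signalling genes moved in both directions. In the BMP pathway 16 of 21 rose and 2 fell, with a median of 1.97. It was 1.29 with the normexp correction and 1.26 in the deposited table. The ligand Bmp2 stood at −5.09, −5.05, −4.92 and −4.85 untreated and at −0.34, −0.51, 0.01 and 0.10 treated (4.80 ± 0.13), while Bmp4, the ligand of the pluripotent state, fell from 3.11, 3.28, 3.55 and 3.48 to 1.43, 1.30, 1.77 and 1.66 (−1.82 ± 0.14). The groups overlapped for neither. The target genes Id3, Id2 and Id1 rose by 3.41, 2.31 and 1.27, and Id4 fell by 1.07. The maturation protease Bmp1 rose by 3.08 on the probe used and measured 0.02 on the other.

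Among Nodal, activin and TGF-beta genes 10 of 23 rose and 10 fell (43.5% each), against 28.9% and 33.5% of all genes. The median of −0.11 turned to 0.60 with the mean of the kept probes. Nodal fell by 2.54, its relative Gdf3 by 4.16 and Lefty1 by 1.86, as did Inhbb (−7.08), while Tgfb2 rose by 6.03 ± 0.14 and the receptor Tgfbr2 by 2.69. Among FGF and ERK feedback genes 12 of 24 fell (50%) and 11 rose (45.8%), against 33.5% and 28.9% of all genes. The median was −0.22, or 0.41 over probes well above background on all 15 arrays. The ERK target factors Etv4 and Etv5 fell by 4.45 and 4.26 and the feedback inhibitor Spry2 by 2.70, alongside Fgf4 and Spry4. Fgfr2 rose by 1.34 (4.02 on its other probe) and Fgfr3 by 1.56 ± 0.39. In the Wnt pathway 25 of 41 rose (61%) and 11 fell (26.8%), against 28.9% and 33.5% of all genes. The median was 1.38. It was 0.46 with the normexp correction and 0.57 in the deposited table, and 0.74 over probes well above background on all 15 arrays. The antagonists Dkk1 (5.86 ± 0.12) and Frzb (at least 26.8-fold) and the ligand Wnt4 (4.05) rose, and the antagonist Sfrp4 fell by 5.26. Axin2, a general target of the pathway, measured −0.10 and did not pass.

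Polycomb genes fell in 1 complex and split in the other. Of 12 genes of PRC2, which methylates lysine 27 of histone H3, 10 fell and 2 rose, with a median of −1.35 (−1.40 to −1.25 within slides). The core subunits Eed, Suz12 and Ezh2 fell by 1.59, 1.29 and 0.87. Eed stood at 5.72, 5.61, 5.50 and 5.64 untreated and at 4.07, 3.89, 4.03 and 4.11 treated, with no overlap. The accessory subunits Phf19, Aebp2, Jarid2 and Mtf2 fell by 2.16, 1.93, 1.82 and 1.76. The second Aebp2 probe gave −0.93, and the second Mtf2 probe measured −1.06 and did not pass. Rbbp7, a histone-binding subunit of several complexes, rose by 1.08. Phf1 measured 0.34 ± 0.13 (adjusted p = 0.043), and its call was lost without untreated replicate 1, 3 or 4 or treated replicate 1, 2 or 3 (adjusted p = 0.067 to 0.13).

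In PRC1, which ubiquitinates histone H2A, 10 of 22 rose (45.5%) and 8 fell (36.4%), against 28.9% and 33.5% of all genes. The median of 0.18 turned to −0.02 with array medians. Phc1, the polyhomeotic subunit of ES cells, fell from between 3.36 and 3.57 to between −0.16 and 0.03 (−3.52 ± 0.09), while its relative Phc2 rose by 2.22. Of the alternative Pcgf subunits, Bmi1 and Pcgf5 rose by 1.74 and 1.85, and Pcgf6 and Pcgf2 fell by 1.06 and 1.13. Of the reader subunits, Cbx8 rose by 2.93 ± 0.46 and Cbx2 by 0.74. Cbx7 stood higher on slides 1 and 2 than on slides 3 and 4 in both groups, and its change within slides was −1.87, −0.53, −0.40 and −1.36. Its change of −1.04 ± 1.34 did not pass (adjusted p = 0.53), but did with the slide as a block (0.010) and in the 8 arrays alone with the replicate block (0.022).

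Among genes of DNA methylation 9 of 17 fell (52.9%) and 6 rose (35.3%), against 33.5% and 28.9% of all genes. The median was −0.37. It was −0.12 with quantile normalisation and in the deposited table, −0.21 with the mean of the kept probes and −0.57 with array medians. The demethylating dioxygenases Tet1 and Tet2 fell by 3.35 and 2.20, Uhrf1 and Dnmt1, which maintain methylation, by 0.95 and 0.76, and Dnmt3l by 0.73. Dnmt3a rose by 1.02 ± 0.06. Dnmt3b measured −0.37 ± 0.06, and −0.12 with quantile normalisation, where it did not pass (adjusted p = 0.16). Imprinted genes, read from 1 parental copy, rose for 18 of 27 and fell for 5, with a median of 1.24. Peg3, Dlk1 and Igf2 rose by 5.42, 5.29 and 4.50. H19 rose by 5.05 on the probe used and measured −0.06 on the other.

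**Figure D4:**
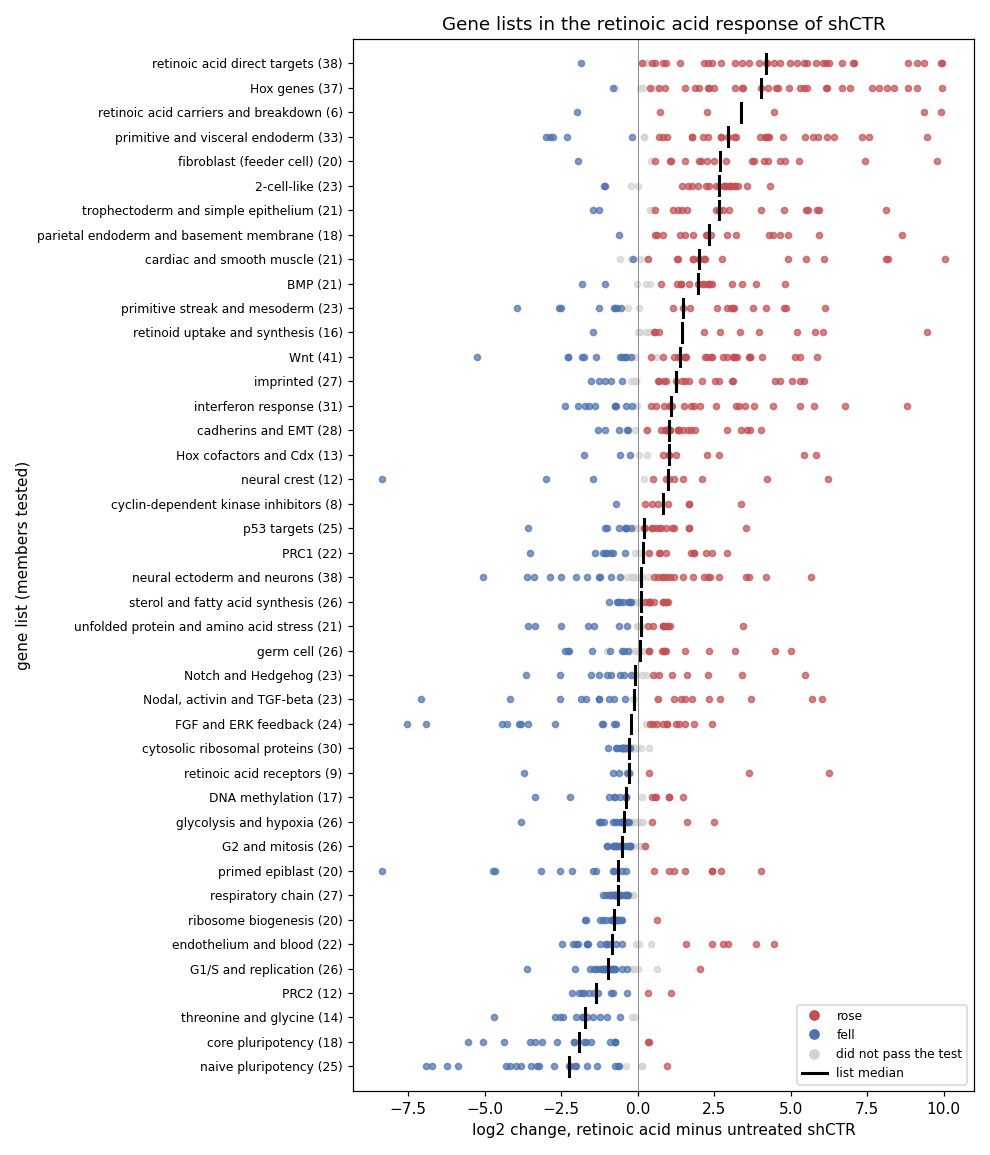
Log2 change (treated minus untreated) of every tested member of the 42 gene lists, sorted by the list median (black bar), with members that rose in red, fell in blue and did not pass in grey. Direct targets and Hox genes have the highest medians (4.20 and 4.04), and naive and core pluripotency genes the lowest (−2.24 and −1.93).

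Most cell cycle genes fell. Of 26 genes of G1/S and replication 21 fell, 11 of them at least 2-fold, and 1 rose, with a median of −0.97. Ccnd1 stood at 2.04, 2.27, 2.17 and 2.03 untreated and at −1.38, −1.34, −1.71 and −1.57 treated (−3.63 ± 0.10), while Ccnd2, its relative, rose by 2.04 ± 0.14. The replication activator E2f2 fell by 2.04 and E2f1 by 1.55. Myc fell by 0.98 (SE 0.24) and Mycn measured −0.16 and did not pass. Of 26 genes of G2 and mitosis 18 fell, by at most 1.01 (Nek2 and Nusap1), with a median of −0.50, which was −0.25 with quantile normalisation and −0.27 in the deposited table. Mki67 measured 0.23, a call lost with array medians (adjusted p = 0.87). Of 8 inhibitors of cyclin-dependent kinases 7 rose and 1 fell. Cdkn2b and Cdkn2a, products of neighbouring genes, rose by 3.36 ± 0.45 and 1.68 ± 0.10, and Cdkn1b fell by 0.71. Cdkn1a rose by 0.48 on the probe used (not with array medians, adjusted p = 0.23) and by 1.32 on its other probe.

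Several metabolic lists held mostly falls. Of 14 genes of threonine, glycine and folate metabolism 12 fell, with a median of −1.73. Tdh, which feeds threonine into glycine in mouse ES cells, stood at 5.75, 5.87, 5.93 and 5.90 untreated and at 1.05, 1.05, 1.24 and 1.33 treated (−4.69 ± 0.38). Gldc, Shmt2 and Mthfd2, enzymes of the mitochondrial branch, fell by 2.70, 2.54 and 2.43. Of 27 respiratory chain subunits 23 fell, with a median of −0.65 (−0.40 with quantile normalisation and −0.37 in the deposited table), for example Uqcrc1 (−1.14) and Sdhb (−1.04). Of 26 genes of glycolysis and the hypoxia response 17 fell, with a median of −0.44 (−0.24 with quantile normalisation and −0.22 in the deposited table), led by Pfkp (−3.83, and −1.58 on its other probe), Hk2 (−1.27) and Pkm (−1.22). The 3 rises were Adm (2.48), Egln1 (1.60) and Ankrd37, at 0.47, whose call was lost under 12 alternatives. Of 20 genes of ribosome biogenesis 19 fell, with a median of −0.78, led by Dkc1 (−1.72) and Rrp9 (−1.70). Pes1 rose by 0.63 on the brightest probe and measured −0.14 with the mean of its probes. Of 30 ribosomal proteins 14 fell (46.7%, against 33.5% of all genes). Their median of −0.30 lay between −0.51 and −0.03 over the alternatives.

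Of 31 interferon response genes 20 rose and 10 fell, with a median of 1.09, or 1.02 with 5 at their bound. It was 0.27 with the normexp correction and 0.48 in the deposited table. Besides Cxcl10, Gbp3 was at least 58.9-fold higher and Oasl2 at least 32.7-fold, and the RNA sensor Ifih1 rose by 4.42. Gbp2 stood at −5.48, −6.00, −5.55 and −6.04 untreated and at −0.54, −0.38, −0.40 and −0.50 treated (5.31 ± 0.13). Ifitm1, Oas1a and Ifitm2 fell by 2.39, 1.95 and 1.60, so that members of the same families moved apart. Among cadherins and genes of the epithelial to mesenchymal transition 21 of 28 rose and 5 fell, with a median of 1.03. N-cadherin, Cdh2, rose by 3.57 ± 0.10, from between −1.60 and −1.33 to between 1.98 and 2.32. E-cadherin, Cdh1, stood at 2.71, 2.75, 2.60 and 2.69 and then at 2.61, 2.65, 2.62 and 2.49, overlapping groups with a change of −0.09 ± 0.07 (adjusted p = 0.26). With array medians it passed as lower (−0.30, adjusted p = 0.015). Cdh6 and the claudin Cldn7 rose by 3.66 and 3.36, Vim by 0.95 and Snai1 by 2.93, while Fn1 fell by 1.07 and Grhl2, an epithelial factor, by 1.30.

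The labels do not name the target of sh4. Where the response of shCTR was set against that of sh4, the difference was tested as the interaction. It passed for 5096 of 25090 genes (20.3%), 2568 with the higher and 2528 with the lower value in sh4. In 12533 genes treated and untreated cells differed in the same direction in both hairpins, and in 336 in opposite ones. By list, the share of genes that differed was highest in 3 extraembryonic endoderm and epithelial lists: 27 of 33 genes of the primitive and visceral endoderm, 22 of them lower in sh4, 15 of 18 of the parietal endoderm (14 lower) and 16 of 21 of trophectoderm and epithelium (14 lower). Krt8 rose by 5.91 in shCTR and 2.22 in sh4, a difference of −3.69 ± 0.15 (adjusted p = 5.7e-09). Cdx2 rose by 2.64 in shCTR and measured −2.07 in sh4 (difference −4.71 ± 0.21). Dppa3 fell by 0.63 in shCTR against −4.63 in sh4 (difference −3.99 ± 0.12). Of 12 PRC2 genes 1 differed, Phf19 (0.85 ± 0.13), and of 37 Hox genes 16, of which 13 were higher in sh4. These values depend on untreated sh4 cells as much as on treated ones. Other lists also lay above the 20.3% of all genes, such as retinoic acid carriers (66.7%) and direct targets (63.2%). Some lay below it, such as the respiratory chain (7.41%). The lists were written with earlier results of these data known, and the change in shCTR is a term of the difference. Ranking the lists by this share is therefore no test. With normexp correction and with array medians 3044 and 2959 genes passed.

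Of the 350 genes named by rule, 338 passed, and 337 of these had the same sign within each of the 4 slides. Most were chosen because they passed or were large on these same arrays, and arrays that do not overlap fix that sign. The count is therefore no test of the directions.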

How the data were processed

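Gene expression was measured on 15 one-colour Agilent arrays, 8 of them of shCTR cells. The scanner intensity values were deposited by the authors as Feature Extraction 10.7.3.1 output, and per the file headers the processed signal is already background-corrected. Probe positions are those of mm9, per the submitters' processing notes and the file headers. A deposited log2 table matched normexp correction with quantile normalisation of the scanner values (median absolute difference 3.4e-10) and served as an alternative.

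The log2 of the processed signal minus each array's 75th percentile was computed for 39312 probes. Probes entered where 3 or more arrays of some group had them well above background, and each gene was read from its brightest kept probe, which gave 25090 genes. Symbols were updated through the RefSeq table. All 15 arrays in 4 groups entered 1 model in limma 3.58.1 (R 4.3.3), with Benjamini-Hochberg adjustment over all genes at 0.05. The script was tested on simulated data.

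Named are the 15 largest rises and falls, genes of a fixed list, up to 4 rises and 4 falls of each gene list, and all Hox genes. The members and lists were chosen with earlier results of these data known. The main model held the group alone, with no pairing. Same-numbered shCTR arrays share a slide and their deviations from the group means correlated at 0.359, 0.457, 0.350 and 0.487. The numbers were taken to pair the samples for the changes within slides and for the replicate block, which is an alternative. In shCTR the number and the slide coincide, so a pairing of the cultures cannot be told apart from a shared slide. Some arrays of different number on slides 1 and 2 or on slides 3 and 4 correlated as highly (1 with 2 at 0.354, 3 with 4 at 0.390). The alternatives were other background corrections, scalings, probe filters and probe summaries, the slide or the replicate number as a block, the 8 shCTR arrays alone, and leaving out each array. Results for some genes are not reported here.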

Additional observations from a re-analysis of the deposited data

Results flagged for a closer look

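Of 224 groups of 4 arrays examined over the genes named by size or from the fixed list, 10 held an array far from the other 3, and chance alone gives about 1 in 20 groups. The log2 levels of these arrays were Crabp2 on untreated replicate 1 (0.37), Fcgr2b on untreated replicate 1 (−2.27), Foxa2 on untreated replicate 3 (−3.53), Foxd3 on treated replicate 4 (−9.13), Lefty2 on untreated replicate 2 (−1.15), Platr10 on untreated replicate 1 (0.97), Prdm14 on treated replicate 4 (−3.44), Rarg on treated replicate 4 (0.07), Sox7 on untreated replicate 3 (−3.73) and Stra8 on treated replicate 1 (4.92).

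The response to retinoic acid differed between the hairpins, by the interaction in limma, for 60 of 112 genes named by size or from the fixed list. The genes named by size were chosen on the change in shCTR, which is a term of this difference, so that this share is not to be read against that of all genes. The values are the log2 change in sh4 minus that in shCTR. Among genes with a positive change in shCTR, those lower in sh4 included Cdx2 (−4.71), Krt18 (−3.97), Ugt2b34 (−3.96), Cxcl10 (−3.89), Krt8 (−3.69), Ttr (−3.39), Glipr1 (−2.51), Dab2 (−2.41), Dcn (−2.37), Actc1 (−1.95), Fgf5 (−1.87), Afp (−1.85), Meis2 (−1.82), Col4a1 (−1.75), Eomes (−1.73), Gata4 (−1.69), Hnf4a (−1.66), Col3a1 (−1.31), Cyp26a1 (−1.22), Lefty2 (−1.10), Rdh10 (−0.99), Meis1 (−0.88), Id1 (−0.84), Pax6 (−0.72), Cdh2 (−0.62), Sox7 (−0.46) and Lama1 (−0.33). It was higher in sh4 for Stra8 (2.17), Cdx1 (1.00), Hoxb9 (0.91), Col1a1 (0.87), Cdkn1a (0.80), Crabp2 (0.73), Rarb (0.73), Dhrs3 (0.64), Sox17 (0.61), Gata6 (0.59) and Vim (0.45). Among genes with a negative change in shCTR, the value was lower in sh4 for Dppa3 (−3.99), Mycn (−2.77), Tdh (−2.23), Otx2 (−2.03), Dnmt3b (−1.72), Lefty1 (−1.71), Pou5f1 (−1.63) and Dnmt3l (−1.09). It was higher in sh4 for Nkx6-3 (3.31), Inhbb (2.65), Pla2g4e (1.63), Bmp4 (1.19), Thy1 (1.13), Sox2 (1.01), Crabp1 (0.92), Phf19 (0.85), Cdkn1b (0.84), Tbx3 (0.79), Rarg (0.55), Rara (0.51) and Ccnd1 (0.45). The changes had opposite signs in shCTR and sh4 for Cdx2 (2.64 and −2.07), Eomes (1.14 and −0.58) and Hnf4a (0.83 and −0.83). They also differed in sign for Tbx3 (−0.60 in shCTR and 0.19 in sh4) and Cdkn1b (−0.71 and 0.14), where the sh4 value is small. The interaction tests the difference and not the change in sh4 alone.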

How the results depend on the processing

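The number of genes that changed, 15649, lay between 13973 and 17663 over all alternatives, and between 15065 and 15309 when 1 shCTR array was left out, with 6952 to 7211 rises and 8039 to 8221 falls. The number that changed at least 2-fold, 6972, was 4235 with the normexp correction and 4189 in the deposited table, and 6923 to 7051 with 1 array left out. The interaction count, 5096, was 3044 with the normexp correction and 2959 with array medians, and 4443 to 4936 with 1 array left out. The median change over all genes, −0.12, was −0.33 with array medians and −0.23 with the normexp correction. With the replicate number as a block, which in shCTR is also the slide, 16716 genes changed. Among genes named here that block let Aldh1a2 pass, and over the 8 shCTR arrays alone it let Cbx7 and Hoxc12, among others, pass as well and lost Myl4 (adjusted p = 0.057, limma).

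Directions turned with the normexp correction for Cyp26c1 (−0.02), Hoxd10 (−0.12) and Hoxd11 (−0.11), and with the mean of the kept probes for Pes1 (−0.14). The median of the neural list, 0.12, was −0.09 with the normexp correction, −0.01 with quantile normalisation, −0.08 with array medians, −0.02 in the deposited table and 0.00 over probes well above background on all 15 arrays. With array medians the PRC1, p53 and sterol medians were −0.02, −0.01 and −0.08. The FGF median was 0.41 over probes well above background on all arrays. The Nodal median was 0.60 with the mean of the kept probes and −0.17 to 0.00 with 1 array left out (−0.17 without untreated replicate 3, 0.00 without treated replicate 3). The Notch and Hedgehog median, −0.10, was −0.19 without untreated replicate 4, 0.01 without untreated replicate 1, 0.04 without untreated replicate 2 and 0.08 without treated replicate 4. The cause of these changes was not tested.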

Other observations

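The lists below held both rises and falls. Over all genes tested, 28.9% rose and 33.5% fell, and these shares are the background for the counts. Among 26 germ cell genes 11 rose and 8 fell, with a median of 0.06 that lay between −0.14 and 0.17 over the alternatives. Among 25 targets of p53 13 rose and 8 fell, with a median of 0.19 that was −0.01 with array medians. Of 26 genes of sterol and fatty acid synthesis 11 rose and 8 fell, with a median of 0.12 that was −0.08 with array medians. Of 21 genes of the unfolded protein and amino acid stress responses 9 rose and 7 fell, with a median of 0.11 that lay between −0.09 and 0.35. Of 23 Notch and Hedgehog genes 7 rose and 9 fell, with a median of −0.10 that lay between −0.31 with array medians and 0.08 without treated replicate 4. The cause of these shifts was not tested.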
